A study of Mus musculus with 12 samples.

Results

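The genes described here are 41 genes of DNA replication and S phase, found by symbol in a table of 52636 gene identifiers, of which 27795 had at least 1 count. Of these, 39 were listed for what they do, and Uhrf1 and Pclaf were added because their fold changes with the antibody had opposite directions in the 2 tissues. Uhrf1 and Pclaf were thus chosen by their measured fold changes in these libraries, and their values are described without a test. All 41 were present in the table and passed the filter on low counts in every comparison. In vehicle livers Orc1, Cdc6, Uhrf1 and Pclaf had too few counts to pass alone. They entered each comparison with vehicle liver only through its other group.

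The study gave tumor-bearing mice a T cell-dependent bispecific antibody (TDB), whose arms bind HER2 and CD3, and sequenced RNA from dissociated liver and dissociated tumor. The mice were wild-type female FVB/NJ mice carrying an orthotopic Fo5 graft in the mammary fat pad. Fo5 is a mammary tumor of 1 MMTV-HER2 transgenic founder line, passed on as tumor pieces, in which the mouse mammary tumor virus promoter drives HER2. Each tissue was taken from 3 vehicle and 3 TDB mice, which gave 4 groups of 3 libraries. Both liver groups thus came from mice that carried the tumor. The antibody was given once into the tail vein at 5 mg/kg, the control groups received its histidine acetate, sucrose and Tween-20 buffer, and tissue was taken at 24 h.

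Before S phase, the origin recognition complex with Cdc6 and Cdt1 loads the MCM2 to MCM7 helicase onto origins, a step called licensing. Mcm10, Cdc45 and the GINS complex then activate the helicase, and primase, polymerases, the sliding clamp PCNA and its loader copy the strands behind it. Transcription of many of these genes is switched on by E2F factors late in G1, whereas genes of mitosis are commonly switched on later through CHR elements. In the adult liver most hepatocytes rest outside the cell cycle, while a growing tumor holds many cycling cells.

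Promoter windows reaching from 250 bases before to 50 bases after the transcript start (RefSeq, GRCm38.p6) were found for 33 of the 41 genes, as 38 windows. An E2F site, searched on both strands as TTTCCCGC, TTTCGCGC, TTTGCCGC or TTTGGCGC, occurred in 14 of these 38 windows (36.8%). It occurred in 2.26% of 32851 windows of all genes and in 3.72% of 13825 windows of genes tested in tumor. Windows of 28 listed mitosis genes looked different, with an E2F site in 1 of 23 (4.35%). There the CHR element TTTGAA occurred in 18 of 23 windows (78.3%), against 10.5% of the windows of the replication genes and 17.9% of all windows. The CCAAT box (CCAAT) was found in 57.9% of the replication windows, 87.0% of the mitosis windows and 37.4% of all windows. These are matches of letters in a window, not measured binding.

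The following stretches are shown because their genes carry the results below, with E2F matches in capitals and each written 5′ to 3′ on the strand of its gene. The first 3 are the 250 bases before a transcript start, and the others are 20 to 30 bases around a match.
Mcm5, chr8:75109259-75109508, plus strand: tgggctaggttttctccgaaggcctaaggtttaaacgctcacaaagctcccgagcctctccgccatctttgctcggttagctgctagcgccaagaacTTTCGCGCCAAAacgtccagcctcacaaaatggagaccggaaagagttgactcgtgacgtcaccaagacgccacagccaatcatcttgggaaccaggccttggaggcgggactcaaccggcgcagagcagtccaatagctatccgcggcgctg
Mcm6, chr1:128359706-128359955, minus strand: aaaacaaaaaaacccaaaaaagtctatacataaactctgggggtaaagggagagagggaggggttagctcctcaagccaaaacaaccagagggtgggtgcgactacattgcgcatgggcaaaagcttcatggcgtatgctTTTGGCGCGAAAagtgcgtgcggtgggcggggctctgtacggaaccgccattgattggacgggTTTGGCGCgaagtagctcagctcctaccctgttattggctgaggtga
Uhrf1, chr17:56304063-56304312, plus strand: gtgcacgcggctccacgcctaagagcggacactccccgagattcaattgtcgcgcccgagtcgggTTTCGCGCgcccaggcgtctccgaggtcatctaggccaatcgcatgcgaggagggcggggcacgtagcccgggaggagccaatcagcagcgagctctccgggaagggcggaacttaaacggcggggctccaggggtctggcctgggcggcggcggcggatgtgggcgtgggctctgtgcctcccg
Mcm3, chr1:20820277-20820302, minus strand: acttccgtgGCGGGAAAacttgggaa
Orc1, chr4:108579418-108579443, plus strand: cggttagtgGCGCGAAAagttttctc
Lig1, chr7:13278843-13278868, plus strand: ccaaagtgcGCGCGAAAtctgtgtgg
Pold1, chr7:44548766-44548785, minus strand: tatcttgtgGCGGGAAAagc
Pclaf, chr9:65890309-65890334, plus strand: ttggagcgcGCGGGAAAgagacccat
Rfc3, chr5:151651198-151651227, minus strand: gtcgcacgcTTTCGCGCtcGCGGGAAAact
In GENCODE M21 the Mcm5 and Mcm6 stretches lie outside any annotated transcript. The Uhrf1 stretch lies in an intron of its longer transcripts, just before a second start, and each shorter stretch overlaps an exon of its own gene. In Mcm5 and in the more distant cluster of Mcm6, 2 matches on opposite strands overlap, so that the capitals run over 12 bases. Rfc3 holds 2 matches that begin 10 bases before its start and at the start itself.

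Liver libraries held 18460159 to 25542980 counts and tumor libraries 20796764 to 29396324. Levels are CPM, the share of a library's counts, scaled by trimmed mean of M values (TMM) factors over the 12 libraries, and are called scaled CPM here. The factors were 0.595 to 0.743 in liver and 1.49 to 1.57 in tumor, so levels across tissues depend on this scaling. Hepatocyte markers summed to 168228 to 286354 scaled CPM in liver and 20.8 to 43.6 in tumor, and mammary tumor epithelium markers to 591 to 1117 in liver and 14676 to 17129 in tumor. Replicates were more uneven in liver, where edgeR's common biological coefficient of variation was 32.3%, than in tumor, where it was 13.0%. Liver vehicle 2 had the highest vehicle value for 37 of the 41 genes, and tumor TDB 2 the lowest value of its group for 39 of them.

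In tumor, the antibody group had less RNA of nearly the whole replication set. Of the 39 genes listed for function, 36 were lower and 0 higher, while 13.1% of 15454 genes tested were lower and 15.8% higher. The median log2 fold change was -0.81 over the 39 genes and -0.02 over all genes tested. In 37 of the 39 all 3 TDB libraries lay below all 3 vehicle libraries and in 0 above, beside 31.9% and 17.7% of all genes. These levels were scaled over 12 libraries. In 1 fit over 12 libraries the tumor median of all genes was -0.10. In bulk tissue, fewer cells in S phase and less RNA per cell cannot be told apart.

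The 41 genes together took 1003 to 1164 scaled CPM in vehicle tumors and 471 to 638 in TDB tumors. In liver the same sum was 450 to 664 with vehicle and 508 to 612 with TDB, so the groups overlapped there. Under TMM scaling the sum in TDB tumors came down into the range of the liver libraries. Whether the tissues meet depends on the TMM factors, which were lower in liver than in tumor. In each role group most tested genes were lower in tumor, where 13.1% of all genes tested were lower. These were 9 of 9 for origin licensing, 6 of 6 for helicase activation, 5 of 6 for polymerases and primase and 4 of 4 for deoxynucleotide synthesis. The counts were 4 of 5 for the clamp and its loader without Pclaf, 3 of 4 for Okazaki fragment maturation and single-strand binding, 2 of 2 for the Chaf1 subunits and 3 of 3 for S phase entry.

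**Figure D1:**
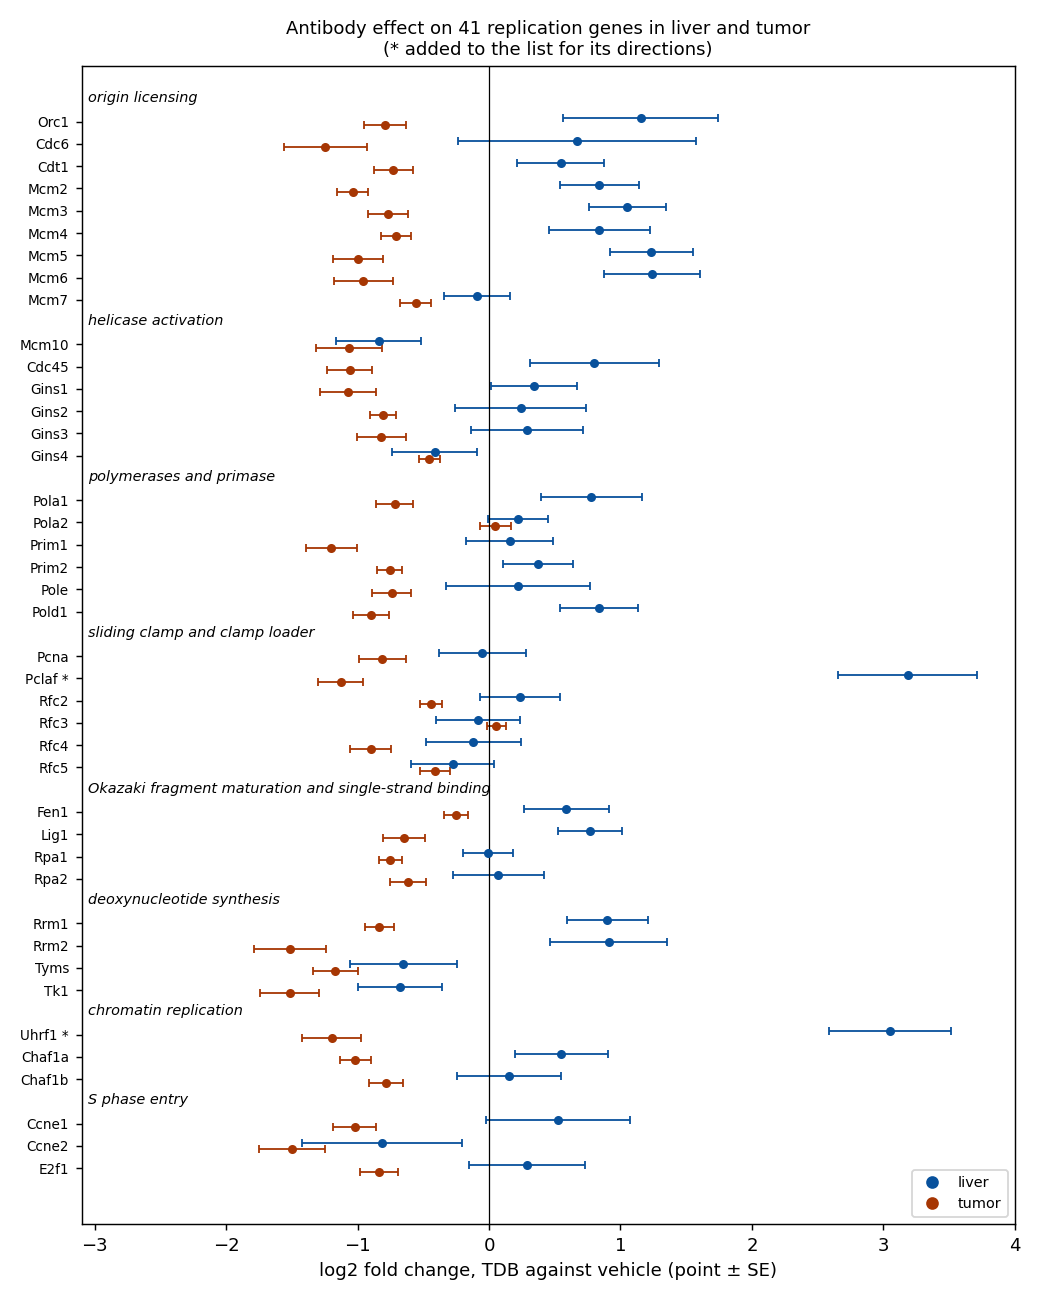
Log2 fold change of TDB against vehicle (x axis) for each of the 41 genes (y axis, by role) in liver and tumor, as a point with its SE. Of the 39 genes without an asterisk, 37 have tumor points left of 0 and 28 have liver points right of 0; Uhrf1 and Pclaf were chosen for opposite directions.

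In liver none of the 39 function-listed genes passed the threshold, and more of their values were above 0 than below. By edgeR's quasi-likelihood test 0 of 39 genes passed in either direction, and at an unadjusted p under 0.05 the count was 7 higher and 1 lower. Over all 13657 genes tested in liver, 0.513% were higher and 0.022% lower after adjustment, and 5.84% and 2.25% at the unadjusted level. The median log2 fold change of the 39 genes was 0.29, against 0.04 for all genes, and 28 of 39 values were positive. In 9 of the 39, Orc1 among them, all TDB livers lay above all vehicle livers (8.18% of all genes did so), and in 0 all lay below (6.58%). DESeq2, run as an alternative, called 2 genes higher, Mcm3 and Mcm5, and limma-voom called 0.

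The licensing genes stood highest in liver, with a median log2 fold change of 0.84 and 8 of 9 values positive. Of these, Orc1 and Cdc6 passed the filter there only through the TDB livers, so their positive values are not independent of the filter. Polymerase and primase genes had a median of 0.30 and 6 of 6 positive values. The clamp group without Pclaf had a median of -0.08, with 4 of 5 values negative. Liver values therefore ran from -0.84 for Mcm10 to 1.24 for Mcm6 among the 39 genes.

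The difference between the tissues was tested directly, as the tumor effect minus the liver effect. It was negative for 38 of the 39 genes, the exception being Rfc3 at 0.09. At an unadjusted p under 0.05 it was lower for 24 of the 39, against 6.82% of all genes tested (5.72% higher). For 10 it passed the adjusted threshold: Mcm2, Mcm3, Mcm5, Mcm6, Prim2, Pold1, Lig1, Rrm1, Rrm2 and Chaf1a. Of 16557 genes tested, 0.658% had a lower difference and 1.83% a higher one. The median difference was -1.17 for the 39 genes and -0.12 for all genes. The count of 10 became 16 without liver vehicle 2 and 16 without liver TDB 3. Leaving out liver vehicle 1, tumor vehicle 1 or 2, or tumor TDB 1 or 2 gave 7 each, and the other libraries gave 8 or 11. A replicate block also gave 7.

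Of these 10, 4 are MCM helicase subunits, which form the ring that unwinds DNA at each fork. Mcm5 stood at 54.4, 63.0 and 45.3 scaled CPM in the vehicle tumors and at 27.2, 19.5 and 30.4 in the TDB tumors. Vehicle livers held 8.58, 17.1 and 10.2 and TDB livers 24.9, 31.5 and 25.8. The groups did not overlap in either tissue, and under TMM scaling the TDB tumors and TDB livers covered a similar range. Mcm5 fell in tumor by 0.99 on the log2 scale (SE 0.19, adjusted p = 0.00831). Its liver value of 1.23 (SE 0.32) did not pass (adjusted p = 0.241; 0.0205 to 0.853 over the alternatives). The difference between tissues, from the fit over 12 libraries, was -2.28 (SE 0.37, adjusted p = 0.00658).

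Mcm6 showed the same layout. It stood at 60.3, 64.9 and 53.3 scaled CPM in vehicle tumors and 31.9, 19.4 and 35.6 in TDB tumors. In liver the values were 4.94, 10.4 and 6.79 with vehicle and 11.9, 19.3 and 19.5 with TDB. The groups again did not overlap in either tissue. The tumor log2 fold change was -0.96 (SE 0.23, adjusted p = 0.0219), the liver value 1.24 (SE 0.36, adjusted p = 0.331) and the difference -2.24 (SE 0.42, adjusted p = 0.0146). The tumor call for Mcm6 was lost without tumor vehicle 1 (adjusted p = 0.0682), tumor vehicle 2 (0.0583) or tumor TDB 1 (0.0504), and with no filter on low counts (0.0943).

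Mcm2 stood at 46.3, 48.0 and 39.7 scaled CPM in vehicle tumors and at 21.3, 17.4 and 22.9 in TDB tumors. The liver libraries gave 7.28, 11.9 and 9.26 with vehicle and 12.8, 18.7 and 17.9 with TDB. The tumor groups were far apart, while the lowest TDB liver lay just above the highest vehicle liver. Mcm2 fell in tumor by 1.04 on the log2 scale (SE 0.12, adjusted p = 0.000343), and its difference between tissues was -1.92 (SE 0.30, adjusted p = 0.00556). The liver value of 0.84 (SE 0.30) did not pass (adjusted p = 0.459).

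Mcm3 stood at 46.9, 50.4 and 42.6 scaled CPM in vehicle tumors and at 29.1, 19.8 and 28.7 in TDB tumors. Liver values were 7.72, 13.1 and 11.96 with vehicle and 18.8, 21.4 and 26.1 with TDB. The groups did not overlap in either tissue, and under TMM scaling the TDB livers reached the levels of the TDB tumors. The tumor log2 fold change was -0.77 (SE 0.15, adjusted p = 0.00773), the liver value 1.05 (SE 0.30, adjusted p = 0.291) and the difference -1.86 (SE 0.32, adjusted p = 0.0089). Mcm2, Mcm3, Mcm5 and Mcm6 kept the call on the difference in 20 of 20 settings.

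The other licensing genes fell in tumor too, from -0.56 for Mcm7 to -1.25 for Cdc6 on the log2 scale. Mcm4, the remaining ring subunit beside Mcm7, fell by 0.71 and had a liver value of 0.84. Mcm7 had a liver value of -0.09, unlike the other 5 ring subunits, and its locus overlaps Cops6 and Ap4m1 on the other strand. Orc1, the ATPase of the origin recognition complex, and Cdt1, a loading factor, fell by 0.79 and 0.73. Cdc6, an ATPase that loads the helicase, stood at 5.07, 7.47 and 4.62 scaled CPM in vehicle tumors and at 2.44, 1.35 and 3.07 in TDB tumors. Its tumor groups did not overlap, and its fall of 1.25 (SE 0.32, adjusted p = 0.0203) lost the call without tumor vehicle 2 (0.0553) or tumor TDB 1 (0.0603). In liver Cdc6 ranged from 0.087 to 2.92 within the vehicle group alone, on 1 count in liver vehicle 1.

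**Figure D2:**
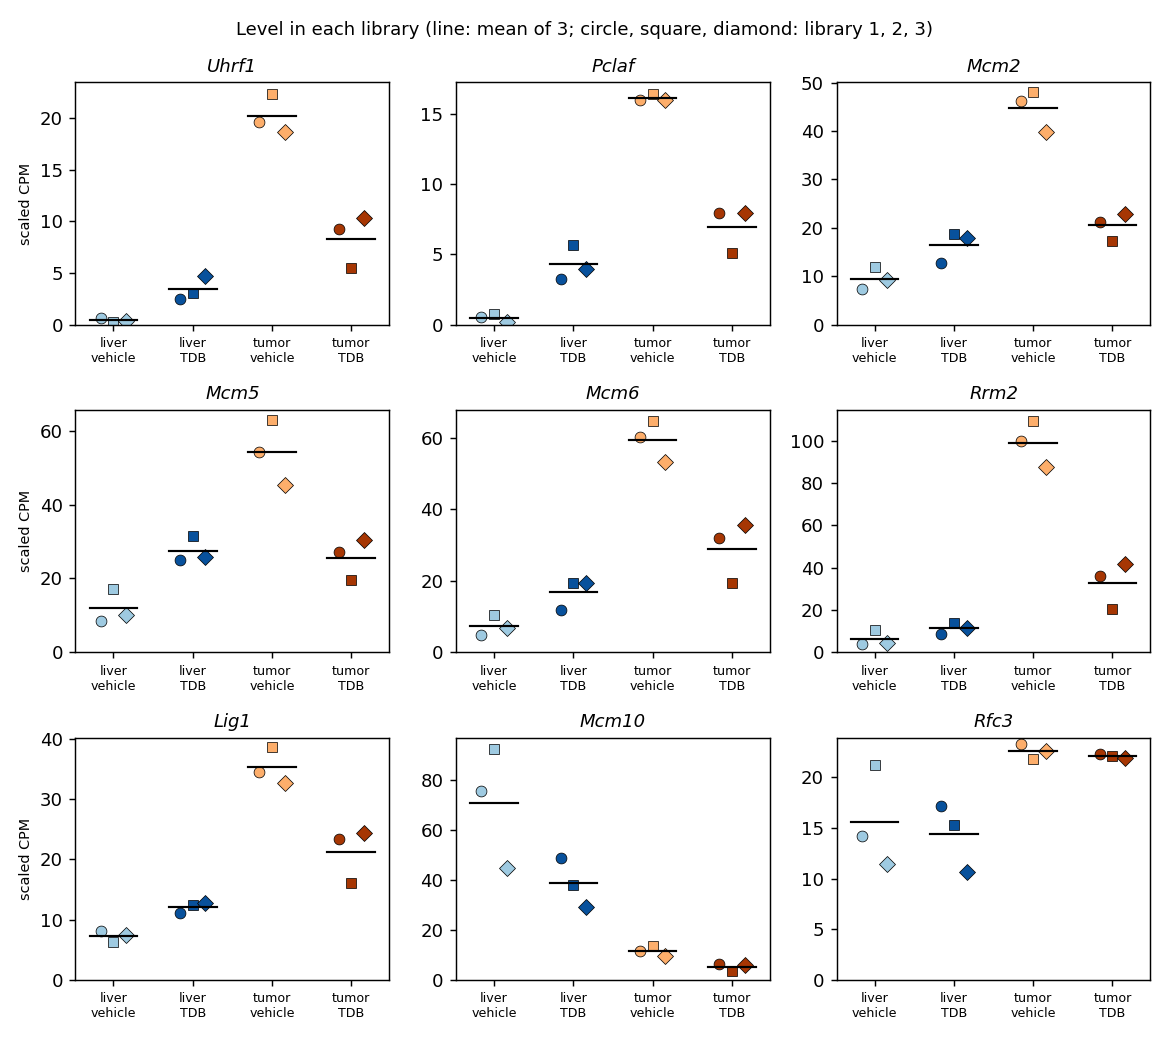
Scaled CPM (y axis, from 0) in each of the 12 libraries for 9 genes, by group (x axis), with the mean of each group as a line. Under TMM scaling Mcm5 in TDB tumors (19.5 to 30.4) and TDB livers (24.9 to 31.5) shares a range. Mcm10 is highest in liver, and Rfc3 is level between the tumor groups.

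Helicase activation genes fell in tumor from -0.46 for Gins4 to -1.07 for Gins1. In the test of the difference 0 of 6 passed, as 0.658% of all genes passed with a lower value. All 6 differences were negative, with a median of -1.13, and 3 had an unadjusted p under 0.05 (6.82% of all genes, lower). Mcm10, a scaffold that helps to activate the helicase, was the gene with the smallest ratio of vehicle tumor to vehicle liver, at 0.16. It stood at 75.3, 92.4 and 44.7 scaled CPM in vehicle livers and at 48.8, 37.8 and 29.02 in TDB livers. It stood at 11.4, 13.5 and 9.65 in vehicle tumors and at 6.28, 3.32 and 6.05 in TDB tumors. Each vehicle liver was thus above each vehicle tumor, and both antibody values were negative. The tumor log2 fold change was -1.07 (SE 0.25, adjusted p = 0.0164; 0.0546 without tumor vehicle 1), and the liver value of -0.84 (SE 0.32) did not pass (adjusted p = 0.513). Cdc45, which travels with the helicase, fell by 1.06 in tumor and had a liver value of 0.80 that did not pass. The GINS subunits Gins2 and Gins3 fell by 0.81 and 0.82.

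Among polymerases and primase, Pold1, Prim1 and Prim2 carried the clearest values. Pold1, the catalytic subunit of polymerase delta, stood at 16.8, 17.7 and 15.4 scaled CPM in vehicle tumors and at 8.67, 6.87 and 9.76 in TDB tumors. Vehicle livers held 3.04, 4.55 and 5.32 and TDB livers 8.10, 7.69 and 6.75. The groups did not overlap in either tissue, and under TMM scaling TDB livers and TDB tumors came to share a range. The tumor log2 fold change was -0.90 (SE 0.14, adjusted p = 0.00151), the liver value 0.84 (SE 0.30, adjusted p = 0.461) and the difference -1.78 (SE 0.30, adjusted p = 0.00853), which held in 20 of 20 settings.

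Prim2, the regulatory primase subunit, stood at 17.9, 18.5 and 18.4 scaled CPM in vehicle tumors and at 10.99, 9.20 and 10.4 in TDB tumors. The liver libraries gave 6.07, 7.05 and 5.09 with vehicle and 6.72, 8.77 and 7.402 with TDB. The vehicle tumors were nearly equal and well above the TDB tumors, while the liver groups overlapped. Prim2 fell in tumor by 0.76 (SE 0.10, adjusted p = 0.000548), and its difference of -1.17 (SE 0.25, adjusted p = 0.0247) passed in 9 of 20 settings. The call on the difference ended without any of liver vehicle 1 or 3, liver TDB 2, tumor vehicle 1, 2 or 3, or tumor TDB 1, 2 or 3 (adjusted p = 0.0525 to 0.0926).

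Prim1, the catalytic primase subunit, stood at 23.3, 22.1 and 20.2 scaled CPM in vehicle tumors and at 9.08, 6.46 and 11.5 in TDB tumors. It was among the 6 largest falls, at -1.20 (SE 0.19, adjusted p = 0.00301), and its tumor groups did not overlap. In liver its groups overlapped, at 8.84 to 14.0 with vehicle and 7.86 to 15.04 with TDB. Pola2, the accessory subunit of polymerase alpha, did not follow Pola1, the catalytic one: Pola2 stood at 8.49 to 9.22 in vehicle tumors and 7.74 to 9.65 in TDB tumors. On the log2 scale its change was 0.05 (SE 0.12, adjusted p = 0.803), while Pola1 fell by 0.72 (SE 0.14, adjusted p = 0.00619). Pole, the catalytic subunit of polymerase epsilon, fell by 0.74.

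The clamp loader was divided in the same way. Rfc3 stood at 23.3, 21.8 and 22.6 scaled CPM in vehicle tumors and at 22.3, 22.1 and 22.0 in TDB tumors. These 6 values overlapped, at a log2 change of 0.06 (SE 0.07, adjusted p = 0.595). Its 2 E2F matches are printed above. Its partners fell, by 0.90 for Rfc4, 0.44 for Rfc2 and 0.41 for Rfc5. The call for Rfc5 (adjusted p = 0.0259) was lost without tumor vehicle 1 (0.0928), tumor vehicle 2 (0.0645), tumor TDB 1 (0.0906) or tumor TDB 2 (0.102). Pcna, the clamp itself, fell by 0.81 in tumor (SE 0.18, adjusted p = 0.00886) and had a liver value of -0.05.

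Lig1, the ligase that seals Okazaki fragments, stood at 34.6, 38.6 and 32.7 scaled CPM in vehicle tumors and at 23.4, 16.0 and 24.3 in TDB tumors. Liver values were 8.15, 6.27 and 7.48 with vehicle and 11.03, 12.5 and 12.7 with TDB. Neither tissue's groups overlapped, and Lig1 was 1 of only 2 of the 41 genes in which liver vehicle 2 was the lowest vehicle library. The difference between tissues was -1.46 (SE 0.27, adjusted p = 0.012). The tumor fall of 0.65 (SE 0.16, adjusted p = 0.0194) lost the call without tumor vehicle 1 (0.0618) or tumor vehicle 2 (0.0586). Fen1, the nuclease that trims the same fragments, did not pass in tumor at -0.25 (SE 0.09, adjusted p = 0.069), though its TDB tumors (12.6 to 14.0) lay below the vehicle tumors (15.7 to 17.8). With tumor vehicle 3 left out Fen1 passed (0.0435). Rpa1 and Rpa2, subunits of the single-strand binding protein, fell by 0.75 and 0.62 in tumor, and their liver values were -0.01 and 0.07.

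Deoxynucleotide synthesis held the largest falls in tumor. Rrm2, the S phase subunit of ribonucleotide reductase, stood at 99.6, 109.2 and 87.4 scaled CPM in vehicle tumors and at 35.9, 20.3 and 41.8 in TDB tumors. Vehicle livers held 3.73, 10.48 and 4.24 and TDB livers 8.68, 13.6 and 11.5. The tumor groups were far apart, and the liver groups overlapped because of liver vehicle 2. Rrm2 fell to 35.1% of vehicle in tumor, or -1.51 on the log2 scale (SE 0.28, adjusted p = 0.01). The difference between tissues was -2.47 (SE 0.52, adjusted p = 0.0267). That call ended without liver vehicle 1 or 3, liver TDB 2, tumor vehicle 1 or 2, or tumor TDB 1 or 2 (adjusted p = 0.0633 to 0.0742).

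Rrm1, the large subunit of the same enzyme, stood at 115.2, 121.6 and 108.3 scaled CPM in vehicle tumors and at 62.7, 51.2 and 68.3 in TDB tumors. The liver libraries gave 11.9, 17.2 and 16.1 with vehicle and 19.1, 27.1 and 35.6 with TDB. The groups did not overlap in either tissue. Rrm1 fell in tumor by 0.84 (SE 0.11, adjusted p = 0.000686), its liver value was 0.90 (SE 0.31, adjusted p = 0.439), and the difference of -1.78 (SE 0.32, adjusted p = 0.011) held in 20 of 20 settings.

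Tk1, the thymidine salvage kinase, had the largest fall in tumor, from 27.9, 27.3 and 31.2 scaled CPM with vehicle to 12.5, 6.46 and 9.61 with TDB. On the log2 scale this was -1.52 (SE 0.22, adjusted p = 0.00285). In liver Tk1 stood at 40.9, 43.7 and 27.8 with vehicle and at 31.6, 21.99 and 15.001 with TDB, so the groups overlapped and the value of -0.68 (SE 0.32) did not pass. Tk1 therefore did not have the liver layout of Rrm1. Its locus overlaps Afmid on the other strand. Tyms, which makes thymidylate, stood at 20.2, 19.2 and 17.2 scaled CPM in vehicle tumors and at 8.64, 5.84 and 9.30 in TDB tumors, a fall of 1.17 (SE 0.17, adjusted p = 0.0014). Its liver groups overlapped, at 9.26 to 20.6 with vehicle and 5.90 to 11.2 with TDB.

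Chaf1a, the large subunit of the factor that places histones on new DNA, stood at 22.4, 24.6 and 21.6 scaled CPM in vehicle tumors and at 11.3, 9.04 and 11.7 in TDB tumors. Liver values were 2.43, 3.09 and 3.47 with vehicle and 2.68, 5.07 and 5.04 with TDB. The tumor groups were apart and the liver groups overlapped through liver TDB 1. Chaf1a fell in tumor by 1.02 (SE 0.12, adjusted p = 0.000305), and its difference was -1.61 (SE 0.34, adjusted p = 0.0277). That call ended without any of liver vehicle 1 or 2, liver TDB 2, tumor vehicle 1, 2 or 3, or tumor TDB 1, 2 or 3 (adjusted p = 0.0537 to 0.0926). Chaf1b, the middle subunit, fell by 0.78. Ccne2, an S phase cyclin, stood at 9.25, 12.3 and 10.7 in vehicle tumors and at 4.20, 2.24 and 4.36 in TDB tumors, a fall of 1.501 (SE 0.25, adjusted p = 0.00319). In liver Ccne2 was 10.9 in vehicle 2 and 2.17 to 3.30 in the other 5 libraries. Ccne1 and the transcription factor E2f1 fell in tumor by 1.02 and 0.84.

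Uhrf1, which brings the maintenance methyltransferase to newly copied DNA, was chosen for its directions. It stood at 0.61, 0.26 and 0.39 scaled CPM in vehicle livers and at 2.48, 3.02 and 4.72 in TDB livers. In tumor it stood at 19.6, 22.4 and 18.7 with vehicle and at 9.26, 5.47 and 10.3 with TDB. The groups did not overlap in either tissue, and every TDB liver still lay below every TDB tumor. Its log2 fold changes were 3.05 (SE 0.46) in liver and -1.20 (SE 0.23) in tumor, on 15 counts over the vehicle livers and 163 over the TDB livers. Uhrf1 lies at chr17:56303321-56323486 (GRCm38, GENCODE M21).

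Pclaf, a small protein that binds PCNA, was chosen with it and lies at chr9:65890237-65903266. It stood at 0.52, 0.77 and 0.15 scaled CPM in vehicle livers and at 3.26, 5.64 and 3.93 in TDB livers. In tumor it stood at 16.0, 16.4 and 16.0 with vehicle and at 7.92, 5.06 and 7.92 with TDB. Its vehicle tumors were almost equal, and its groups did not overlap in either tissue. The log2 fold changes were 3.19 (SE 0.53) in liver, on 17 counts with vehicle and 209 with TDB, and -1.13 (SE 0.17) in tumor. In tumor Uhrf1 and Pclaf lay within the range of the 39 genes (-1.52 to 0.06), and in liver both lay above it (-0.84 to 1.24). As both were chosen by these fold changes, their places beside the 39 genes and the gaps between their groups are no independent result.

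**Figure D3:**
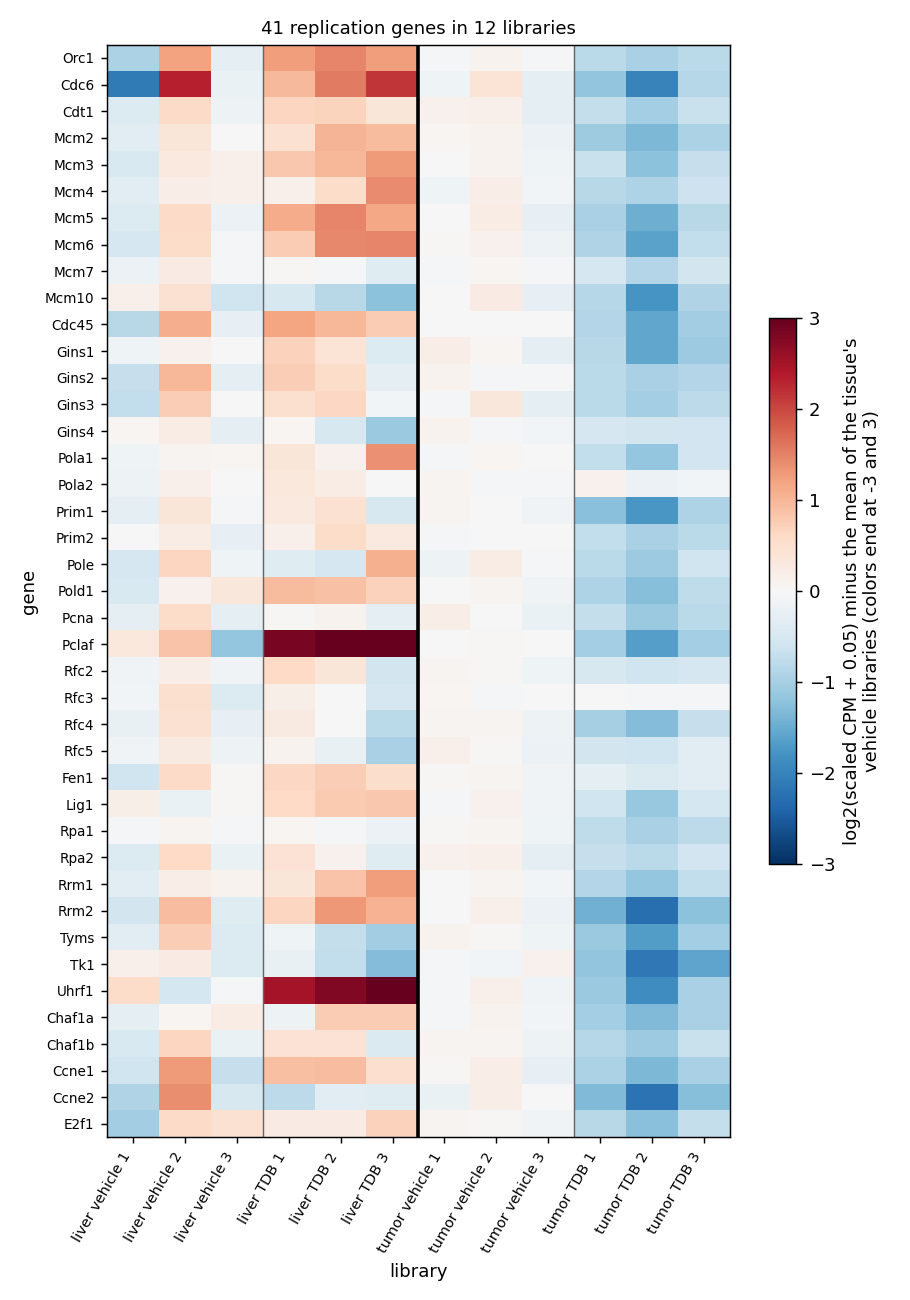
Each cell is log2(scaled CPM + 0.05) of a gene (y axis) in a library (x axis) minus the mean of the vehicle libraries of its tissue. Tumor TDB 2 is the lowest library of its group for 39 of the 41 genes, and liver vehicle 2 is the highest vehicle liver for 37.

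Without antibody, the tumor held more RNA of most replication genes than the liver. Of the 39 genes, 25 were higher in vehicle tumor and 4 lower, while 40.8% of 15633 genes tested were higher and 37.8% lower. In 26 all vehicle tumors lay above all vehicle livers and in 4 below, as for 43.5% and 38.9% of all genes. The median log2 ratio was 1.57, against 0.08 for all genes. All 9 licensing genes were higher in tumor, from 0.44 for Mcm7 to 3.05 for Orc1. Orc1 had 2, 11 and 4 counts in the vehicle livers and Cdc6 had 1, 34 and 6. Both thus passed the filter here only through the tumor libraries, and their direction is not independent of it. The Mcm7 call (adjusted p = 0.0368) ended without liver vehicle 1 or 3 or tumor vehicle 1, 2 or 3 (0.0583 to 0.117), and that of Rpa1 (0.34, adjusted p = 0.0411) without liver vehicle 1 or 3 or tumor vehicle 1 or 2 (0.062 to 0.139). Rrm2 had the largest ratio among the 39 genes at 16.1 (log2 4.01, SE 0.36, adjusted p = 8.82e-06). The 4 lower genes were Mcm10 (-2.62, SE 0.27, adjusted p = 2.35e-05), Pola2 (-0.86), Rpa2 (-0.79) and Rfc2 (-0.64). The Rpa2 call ended without tumor vehicle 1 (adjusted p = 0.051) or tumor vehicle 3 (0.0909). With library size alone as scaling, the median of all genes moved to 1.42, and Pola2 (0.47), Rfc2 (0.70) and Rpa2 (0.55) changed sign, while Mcm10 kept its direction.

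Uhrf1 and Pclaf had the largest ratios of the 41 genes, 48.5 and 33.4, which share the vehicle libraries that chose them and are given without a test. Per kilobase of exon, the mean level in vehicle tumor was 35.6 scaled CPM for Rrm2, 12.8 for Mcm6 and 1.50 for Mcm10, and in vehicle liver 2.22, 1.58 and 9.20. Mcm10 was thus the highest of the 3 in vehicle liver and the lowest in vehicle tumor. Over the 39 function-listed genes the median ratio of tumor to liver was 2.97 with vehicle and 1.12 with TDB, and the ratio was lower with TDB for 38 of the 39. Over the 15426 genes with a ratio the medians were 1.03 and 0.992, and the ratio was lower with TDB for 60.7%. The tumor mean exceeded the liver mean for 33 of the 39 genes with vehicle and for 23 with TDB. These ratios rest on the TMM factors. With library size alone as scaling, the median log2 ratio of vehicle tumor to vehicle liver over the 39 genes moved from 1.57 to 2.92. How near the tissues came with TDB thus depends on the scaling.

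The 12 function-listed genes with an E2F match in a window and the 19 with a window without one had tumor medians of -0.78 and -0.90. In tumor 11 of the 12 and 17 of the 19 were lower past the threshold, beside 13.1% of all genes tested. In liver the medians were 0.77 and 0.16, with 10 of 12 and 12 of 19 values positive. The difference between tissues passed with a lower value for 5 of the 12 and 4 of the 19, beside 0.658% of all genes tested. The gap between the 2 sets was not tested, and the first set holds 7 of the 9 licensing genes.

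Other genes of the same processes were followed in lists that do not include the 41. Over all genes tested in tumor, 13.1% were lower and 15.8% higher. Of 38 other replication fork and licensing genes, 17 were lower in tumor and 0 higher, with a median of -0.35. They were led by Dscc1 and Chtf18, which load the clamp for cohesion (-1.20 and -1.07), the nuclease Exo1 (-1.15) and the licensing inhibitor Gmnn (-1.05). Dscc1 (-3.03, adjusted p = 0.0139) and Exo1 (-2.71, adjusted p = 0.00945) also passed in the difference between tissues. Of 19 replication checkpoint genes 9 were lower, among them the kinase Chek1 (-1.13), Brca1 (-0.94) and Fancd2 (-0.92). Higher were 2, the checkpoint kinase Atr (0.34) and Hus1 (0.36), a subunit of a checkpoint clamp. That was no larger a share than over all genes. The Atr call (adjusted p = 0.0317) ended without tumor vehicle 1 (0.0849) or tumor TDB 1 (0.0781), 2 (0.0634) or 3 (0.105), and with upper quartile (0.0703) or library size scaling (0.142). With 1 fit over all 12 libraries neither Atr (0.766) nor Hus1 (0.519) passed.

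Replication-coupled chromatin genes were lower in tumor for 11 of 18 and higher for 0 (13.1% and 15.8% of all genes), with a median of -0.48. The largest falls were those of Hmgb2 (-1.18) and the histone chaperone Asf1b (-1.03). In the difference between tissues Asf1b had -1.86 (adjusted p = 0.0267), a call that ended without liver vehicle 1 or 3, liver TDB 2, tumor vehicle 1 or 2, or tumor TDB 1, 2 or 3 (0.0514 to 0.0895).

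Nucleotide supply had an exception. Samhd1, which breaks down deoxynucleoside triphosphates, stood at 67.7, 64.8 and 71.4 scaled CPM in vehicle tumors and at 703.9, 888.5 and 677.5 in TDB tumors. Vehicle livers held 23.2, 13.8 and 26.8, and TDB livers 102.6, 138.2 and 261.8. The groups were far apart in both tissues. Samhd1 rose in tumor by 3.56 on the log2 scale (SE 0.12, adjusted p = 1.79e-07), opposite to the ribonucleotide reductase genes. Its rise in liver, 3.03 (SE 0.43, adjusted p = 0.0402), lost the call without liver vehicle 1 (0.248), 2 (0.19) or 3 (0.193) or liver TDB 2 (0.112). Of the 24 supply genes tested in tumor, 13 were lower (7 without tumor TDB 2), against 13.1% of all genes tested. Among the 13 was the dUTPase Dut (-1.004).

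Among 30 regulators of the passage from G1 to S, 12 were lower and 3 higher in tumor, beside 13.1% and 15.8% of all genes tested. The higher ones were thus no larger a share than over all genes. Ccnd1, the G1 cyclin, stood at 560.1, 568.6 and 658.5 scaled CPM in vehicle tumors and at 261.1, 158.9 and 251.8 in TDB tumors. These groups did not overlap, and Ccnd1 fell by 1.33 (SE 0.19, adjusted p = 0.00224). In liver Ccnd1 had a value of 0.53 (adjusted p = 0.535), and its difference between tissues was -1.90 (SE 0.30, adjusted p = 0.00556). Mybl2, a transcription factor of the cycling cell, had a difference of -3.37 (adjusted p = 0.00766). The E2F repressors E2f7 and E2f8 fell in tumor by 1.10 and 0.96, and the E2f7 call (adjusted p = 0.0205) ended without tumor vehicle 2 (0.0685) or tumor TDB 2 (0.0688). The 3 higher genes were the kinase Cdk6 (0.75), the E2F-binding repressor Rb1 (0.53) and its relative Rbl1 (0.42). The Rb1 call (adjusted p = 0.011) ended without tumor vehicle 1 (0.0541), and 5 were higher without tumor vehicle 3. With 1 fit over all 12 libraries none of Cdk6 (0.253), Rb1 (0.492) and Rbl1 (0.639) passed.

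The mitosis genes were lower in tumor for 25 of 28 (13.1% of all genes tested), with a median log2 fold change of -1.06. In liver their median was -0.32 with 10 of 28 values positive, beside 0.29 and 28 of 39 for the replication genes, a gap that was not tested. Spc25, a kinetochore subunit, stood at 21.5, 22.3 and 21.8 scaled CPM in vehicle livers and at 6.53, 8.09 and 5.90 in TDB livers. It was the only listed mitosis gene past the threshold in liver, at -1.63 (SE 0.24, adjusted p = 0.042), and it fell by 1.39 in tumor. Its liver call ended without liver vehicle 1 (0.254), 2 (0.178) or 3 (0.237) or liver TDB 1 (0.0794) or 2 (0.181). In the difference between tissues 1 of the 28 passed, Ndc80 (-1.58, adjusted p = 0.0453), and it lost the call without any single library except liver TDB 3 (0.0507 to 0.135).

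**Figure D4:**
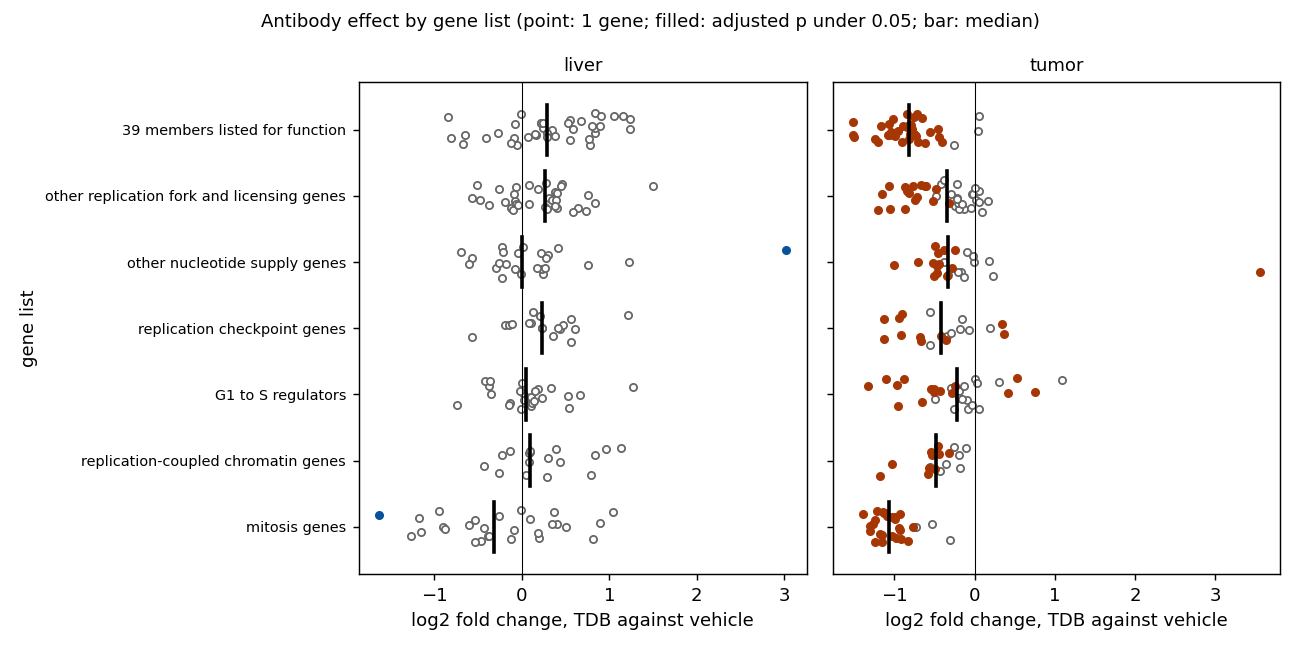
Log2 fold change of TDB against vehicle (x axis) for each gene of 7 lists (y axis) in liver and in tumor, filled where the adjusted p was under 0.05, with the median as a bar. The replication genes have medians of 0.29 in liver and -0.81 in tumor, and the mitosis genes -0.32 and -1.06.

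The levels of other cell types were set beside these values. The summed T cell markers (17 genes) were 4.25 to 6.70 scaled CPM in vehicle tumors, with Cd3e at 0, and 17.01 to 28.2 in TDB tumors. In liver they were 49.99 to 72.3 with vehicle and 79.5 to 91.7 with TDB. NK cell markers (6 genes) were 0.15 to 0.31 in vehicle tumors, with Klra8 at 0, and 9.03 to 13.7 in TDB tumors. In liver they were 3.55 to 9.28 with vehicle, also with Klra8 at 0, and 10.02 to 18.5 with TDB. B cell markers (6 genes) lay the other way in liver, at 10.4 to 10.95 with vehicle and 6.72 to 9.99 with TDB, and in tumor at 0.15 to 0.21, with Blk at 0, and 0.92 to 1.40. Macrophage and monocyte markers (10 genes) were 239 to 312 and 830 to 1032 in tumor, and 423 to 512 and 481 to 533 in liver. Neutrophil markers (8 genes) were 3.58 to 7.72 and 24.6 to 48.1 in tumor and overlapped in liver, at 20.03 to 38.3 and 28.5 to 50.7, with Ly6g at 0 in both vehicle groups and Ngp at 0 in both tumor groups. Kupffer cell markers (5 genes) overlapped in liver, at 684 to 1044 with vehicle and 713 to 933 with TDB, and in tumor were 0.031 to 0.38 and 2.12 to 2.47, with Clec4f at 0 in both and Marco at 0 with vehicle. The next 3 lists overlapped between vehicle and TDB in both tissues. Endothelial markers (10 genes) were 223 to 369 and 228 to 429 in liver and 102.02 to 162 and 81.6 to 127 in tumor. Fibroblast and stellate cell markers (10 genes) were 432 to 467 and 360.1 to 474 in liver and 442 to 1399 and 422 to 960.1 in tumor. Erythroid markers (7 genes) were 838 to 3857 and 433 to 1440.0 in liver and 63.3 to 130.4 and 50.4 to 119 in tumor. The mammary tumor epithelium sum overlapped between vehicle tumors (14676 to 17129) and TDB tumors (16175 to 16809), and the hepatocyte sum was 244457 to 286354 in vehicle and 168228 to 208145 in TDB livers. These sums rest mostly on single genes: Csn3 took 1.83% to 2.21% of tumor counts, and albumin 7.96% to 14.3% of liver counts. Of 9 mammary markers tested in tumor, 2 were lower and 0 higher (13.1% and 15.8% of all genes were). Of 9 hepatocyte markers tested in liver, 0 passed. The part of these shifts in the replication genes was not tested. Liver TDB 3 had the highest mitochondrial share of the livers (2.05% of counts, 0.85% to 1.28% in the other livers). It had the lowest value of the TDB livers for 23 of the 41 genes and the highest for 10. A link between the share and these values was not tested.

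Some of these loci are hard to count. For 8 of the 41 genes an annotated processed pseudogene matched at 95% identity or more over at least 200 bases: Cdc6, Mcm7, Pclaf, Pcna, Rfc5, Rrm2, Tyms and Uhrf1. The copy of Pcna, Pcna-ps2 (99.2% over 781 bases), had 664 counts over the 12 libraries against 1230 for Pcna itself, so the level of Pcna is uncertain. That of Uhrf1, Gm5648, had 264 counts against 3069. Further, 13 of the 41 overlap a gene on the other strand that had over 100 counts, among them Pclaf with Trip4, Tk1 with Afmid, Ccne2 with Ints8 and Lig1 with Zswim9. Whether counting used strand is not given in the sources used here.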

How the data were processed

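The data are 12 bulk RNA-seq libraries of dissociated tissue. The authors deposited whole-number read counts per Ensembl gene identifier, not normalized. GSNAP, limma and GRCm38 are named per the submitters' processing notes, without role or version. For the counter, annotation and strand setting the sources used here give no name. GENCODE M21 named 52489 of the 52636 identifiers. The deposited FPKM values were not used.

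The test was that of edgeR 4.0.16 (R 4.3.3) on these counts: filterByExpr (minimum count 10, minimum total 15), TMM scaling, robust quasi-likelihood fit and F test. The antibody was tested within each tissue (6 libraries) and as an interaction over 12, and vehicle tumor was compared with vehicle liver. Each fit had its own filter and TMM factors, so a difference need not equal the gap between the tissue values. The levels were scaled over 12 libraries, so small changes can differ in sign from the fold change, as for Pola2 and Rfc3 in tumor. Each SE was derived from the test, as the absolute log2 fold change divided by the square root of F. Adjusted p-values (Benjamini-Hochberg) cover all genes tested and were called under 0.05. They rest on the spread between libraries of a group, in which mouse, dissociation and library effects cannot be told apart. The fits were tested on simulated data. DESeq2 1.42.0, limma 3.58.1 (voom), other scalings, no filter, a replicate block, 1 fit over 12 libraries and each library left out were alternatives. Library size scaling alone was added after seeing the data.

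Values per library are given for Uhrf1 and Pclaf, genes past the threshold in liver or in the interaction, the 6 largest falls in tumor, and the extreme tumor to liver ratios. Rfc3, Pola2, Fen1, Samhd1, Ccnd1, Atr, Hus1, Rb1 and Rbl1 were detailed after their values were seen. From the other lists up to 4 genes with the largest change were named, and some are not reported here. The members and lists were chosen with earlier results of these data known. Replicates differed by more than sampling noise in each of 12 pairs (chi-square per degree of freedom 14.05 or more).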

Additional observations from a re-analysis of the deposited data

Results flagged for a closer look

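The antibody effect differed between tumor and liver, by a test of the difference itself, for 10 of the 39 genes listed for function. Of all 16557 genes tested, 0.658% had a lower difference and 1.83% a higher one. With a library left out the count of 10 became 7 to 16. The log2 difference, tumor minus liver, was -1.92 for Mcm2, -1.86 for Mcm3, -2.28 for Mcm5 and -2.24 for Mcm6, all subunits of the replicative helicase. It was -1.78 for the polymerase subunit Pold1, -1.17 for the primase subunit Prim2 and -1.46 for the ligase Lig1. It was -1.78 for Rrm1 and -2.47 for Rrm2, the subunits of ribonucleotide reductase, and -1.61 for the histone chaperone subunit Chaf1a. In each of the 10 the tumor value was negative and past the threshold, and the liver value was positive and did not pass by edgeR's quasi-likelihood test. The calls for Chaf1a, Prim2 and Rrm2 ended when single libraries were left out, as given with their values above.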

How the results depend on the processing

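The 39 function-listed genes lower in tumor were 36, and 19 with 1 fit over 12 libraries. They were 32 to 37 with a library left out. In liver 0 became 2 higher with DESeq2 (Mcm3, Mcm5), 2 with the replicate block (Mcm5, Mcm6) and 2 with 1 fit over 12 libraries (Mcm3, Mcm5). It stayed at 0 with a library left out. In the difference between tissues 10 lower became 18 with DESeq2, 16 with library size scaling and 7 to 16 with a library left out. In vehicle tumor against liver, 4 lower became 1 with library size scaling, and 23 to 29 were higher and 3 to 6 lower with a library left out. There Gins4 (1.01), Pola2 (0.47), Rfc2 (0.70), Rpa2 (0.55) and Tk1 (0.96) changed sign, as this scaling moved the median of all genes from 0.08 to 1.42. It moved that median from 0.04 to 0.15 in liver, from -0.02 to -0.15 in tumor and from -0.12 to -0.31 in the difference.

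Over all genes tested in liver, 70 higher and 3 lower became 292 and 60 with DESeq2, 133 and 12 without a filter, 291 and 59 with the replicate block and 282 and 41 with 1 fit over 12 libraries. Lower calls were 5 with upper quartile and 1 with library size scaling. Leaving out a library gave 14 to 151 higher and 0 to 12 lower. In tumor 2437 higher and 2019 lower became 2075 and 2991 with upper quartile scaling, 3994 lower with library size scaling, and 1068 and 627 with 1 fit over 12 libraries. Leaving out a library gave 1797 to 2717 higher and 1145 to 2143 lower. In the difference, 303 higher and 109 lower became 582 and 315 with DESeq2, 190 lower with library size scaling and 42 lower with the replicate block. Leaving out a library gave 196 to 525 higher and 45 to 177 lower. In vehicle tumor against liver, 6371 higher and 5904 lower became 10495 and 2772 with library size scaling. Leaving out a library gave 6048 to 6688 higher and 5568 to 6090 lower. The causes were not tested.

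No label ties a replicate number to a single mouse across tissues, and the main fit took the libraries as unpaired. Deviations of same-numbered liver and tumor libraries correlated at -0.04 to 0.10, and those of vehicle and TDB libraries at -0.06 to 0.46. With so few libraries per group and different tissues, such values cannot settle whether liver and tumor came from the same mice. In comparisons between tissues the replicate block matched liver and tumor libraries by number. Within a tissue it matched vehicle and TDB libraries by number, although these came from different mice. With the replicate block, 35 of the 39 genes were lower in tumor and 7 in the difference, where Lig1 (adjusted p = 0.0609), Chaf1a (0.111) and Prim2 (0.132) lost the call, as Cdc6 did in tumor (0.0584) and Mcm7 (0.0587) and Rpa1 (0.0777) in vehicle tumor against liver. There Gins3 (0.0347), Rfc3 (0.0488) and Ccne2 (0.0163) passed with it. Liver vehicle 1 held 1 count of Cdc6 and 2 of Orc1, which limits what liver can show for them.

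Among the other lists, lower calls in tumor ranged over all alternatives from 9 to 27 (fork), 3 to 18 (nucleotides), 5 to 13 (checkpoint), 5 to 20 (G1 to S), 5 to 16 (chromatin) and 12 to 28 (mitosis), each lowest with 1 fit over 12 libraries. In that fit the higher calls of the checkpoint and G1 to S lists went from 2 and 3 to 0, and 1 nucleotide gene stayed higher. With the replicate block, Dscc1 (adjusted p = 0.067), Exo1 (0.0587), Asf1b (0.0847) and Ndc80 (0.158) lost the call on the difference.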
